A study of Mus musculus with 16 samples.

Results

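Small leucine-rich proteoglycans are secreted proteins with a core of leucine-rich repeats that bind collagen in the extracellular matrix. The 10 genes described here were Fmod, Dcn, Bgn, Lum, Ogn, Prelp, Omd, Aspn, Podn and Ecm2, found by symbol among the 55573 genes of the count table. They were chosen as matrix genes of this family, and the family was selected on measured values, the rise of Fmod after transverse aortic constriction (TAC), which was among the largest. All 10 passed the filter on low counts that left 19955 genes for testing. Their Ensembl identifiers and positions on GRCm38 are given where each gene is first described.

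The study asked how loss of Trbp (Tarbp2), an RNA-binding protein, affects the adult heart at rest and under pressure overload. RNA was sequenced from ventricles of 16 male mice that formed 4 groups of 4, named control sham, control TAC, Trbp-cKO sham and Trbp-cKO TAC. All 16 mice carried the αMHC-MerCreMer transgene, in which the cardiac myosin heavy chain promoter drives a tamoxifen-inducible Cre in cardiomyocytes, together with Trbp-flox/flox alleles. From the age of 4 weeks, Trbp-cKO mice received tamoxifen at 30 mg/kg once daily for 5 days, and control mice received corn oil without tamoxifen. TAC places a ligature around the aorta, sham surgery does not, and hearts were taken about 8 weeks after surgery. Effects of tamoxifen, of active Cre and of Trbp loss cannot be told apart between these groups, and tamoxifen-treated mice without Cre were not analysed here. Cells other than cardiomyocytes keep Trbp in this model.

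Small leucine-rich proteoglycans sit on collagen fibrils and set their diameter and spacing. Decorin, biglycan and asporin form class I of the family, fibromodulin, lumican, prolargin and osteomodulin form class II, osteoglycin belongs to class III and podocan to class V. Ecm2 encodes a matrix protein with related leucine-rich repeats. In the heart, fibroblasts make most of these proteins, and decorin and biglycan also bind TGF-β and cell surface receptors. In bulk ventricle, fewer cells of a type and less RNA per cell cannot be told apart.

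Total counts ranged from 45166994 to 68274222 per heart. Levels are given as CPM, counts scaled to the TMM-adjusted total of each library. Tarbp2 measured 30.6–33.3 CPM after sham and 21.1–31.1 after TAC in control hearts, and 8.39–11.4 and 7.14–9.74 CPM in Trbp-cKO hearts, so the genotypes did not overlap. Cardiomyocyte markers summed to between 23038 and 60732 CPM over the 16 hearts, with none of the 10 markers at 0. Control TAC replicates 1 and 2 stood apart, with 38.2% and 38.8% of counts from the mitochondrial chromosome against 21.7–25.2% in replicates 3 and 4, and with cardiomyocyte marker sums of 28835 and 23038 CPM against 56660 and 57085 CPM. Trbp-cKO TAC replicate 4 had the lowest cardiomyocyte marker sum of its group, 35507 CPM against 49532–58638 CPM. A score of circadian clock genes ran from -1.16 to -1.01 in Trbp-cKO sham and from 0.65 to 1.67 in control sham hearts.

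Most of these genes lie in clusters. Ecm2, Aspn, Omd and Ogn follow each other on the plus strand of chromosome 13, with gaps of 11653, 14896 and 15223 bp and 0 protein-coding genes between neighbours, inside the span of Cenpp on the opposite strand. Dcn and Lum are neighbours on chromosome 10, separated by 46984 bp. Prelp and Fmod are neighbours on chromosome 1, separated by 115839 bp and transcribed away from each other. Bgn lies on chromosome X and Podn on chromosome 4.

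The promoters of the genes that differed with Trbp deletion show how differently these related genes begin. RefSeq promoters on GRCm38.p6 were matched by symbol for 8 of the 10 genes, with 9 windows, and not for Dcn and Lum. The 250 bases before the start of Fmod (chr1:134037004-134037253, plus strand), of its neighbour Prelp (chr1:133921402-133921651, minus strand) and of Podn (chr4:108031955-108032204, minus strand) are shown 5′ to 3′, with matches to CAGAC and also CCAAT or GGGCGG on either strand in capitals.
Fmod: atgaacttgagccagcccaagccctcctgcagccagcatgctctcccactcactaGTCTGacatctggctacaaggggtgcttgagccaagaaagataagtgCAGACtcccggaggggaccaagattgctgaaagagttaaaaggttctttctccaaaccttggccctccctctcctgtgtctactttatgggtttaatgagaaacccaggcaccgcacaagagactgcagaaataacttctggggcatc
Prelp: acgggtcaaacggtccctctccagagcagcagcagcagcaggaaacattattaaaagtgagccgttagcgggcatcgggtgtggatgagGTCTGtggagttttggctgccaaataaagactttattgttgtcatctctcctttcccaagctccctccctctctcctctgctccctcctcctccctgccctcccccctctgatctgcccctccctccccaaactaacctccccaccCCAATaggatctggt
Podn: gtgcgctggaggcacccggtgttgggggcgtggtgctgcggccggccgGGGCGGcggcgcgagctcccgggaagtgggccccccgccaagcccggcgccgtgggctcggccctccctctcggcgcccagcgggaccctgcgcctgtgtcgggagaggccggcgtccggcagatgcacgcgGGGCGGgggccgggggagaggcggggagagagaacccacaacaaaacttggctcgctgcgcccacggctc
The Fmod window, with 51.2% G and C, held 2 matches to CAGAC, the core recognised by SMAD proteins, and none to the other motifs. Prelp, at 55.6%, held 1 CAGAC and 1 CCAAT match. Podn, at 78%, held 2 matches to the Sp1 motif GGGCGG, and its other RefSeq window held none. Among 32851 promoter windows of this length, CAGAC occurred in 42.2%, CCAAT in 33.8% and GGGCGG in 32.7%. TATAAA (12.4% of windows) was present in the windows of Ogn and Aspn, GGAATG (12.6%) in that of Ogn, and TGANTCA (6.75%) in 0 of the 9. None of these motifs overlapped another in the windows shown, and a match describes the letters only.

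Levels were compared between genes as CPM per kilobase of merged exon. In control sham hearts Dcn was highest at 66.1 ± 4.89 (SD, n = 4) CPM per kb, followed by Ogn at 36.0 ± 3.27, Bgn at 31.5 ± 2.41 and Lum at 22.4 ± 2.25. Aspn (11.3 ± 0.434), Prelp (10.9 ± 1.09), Ecm2 (5.21 ± 0.541) and Podn (2.43 ± 0.275) were lower, and Omd (0.297 ± 0.122) and Fmod (0.253 ± 0.105) were lowest. The ranges over hearts of Ogn and Bgn, of Aspn and Prelp and of Omd and Fmod overlapped, whereas the other neighbours in the order were separate. Within single hearts, Ogn was above Bgn in each control sham heart. The order of Aspn and Prelp and that of Omd and Fmod changed between hearts.

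After TAC in Trbp-cKO hearts the order was different. Bgn was first at 143 ± 57.2 CPM per kb and Dcn second at 102 ± 12.3. Their ranges over hearts overlapped, but within each Trbp-cKO TAC heart Bgn was above Dcn. Fmod had moved from the 10th to the 7th place, at 28.5 ± 24.8 CPM per kb. That mean leaned on replicate 4, the highest heart in a range of 14.3–65.6 CPM per kb. Among neighbours in the order, only the ranges of Podn and Omd at the lower end were separate from each other. The place of Bgn depended on the length used: with the longest transcript (2666 bp, against 6099 bp of merged exon) Bgn was already above Dcn in control TAC hearts, at 194 against 122 CPM per kb.

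The summed level of the 10 genes was 186 ± 12.5 CPM per kb after sham and 300 ± 72.5 after TAC in control hearts, and 247 ± 25.8 and 446 ± 170 in Trbp-cKO hearts (SD, n = 4 each). Every Trbp-cKO sham heart (223–271) was above every control sham heart (172–202). After TAC the groups overlapped. No test is given for this sum, since its members were chosen with results known. Fmod made up 0.137% of the sum after sham and 1.22% after TAC in control hearts, and 0.168% and 5.74% in Trbp-cKO hearts.

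**Figure D1:**
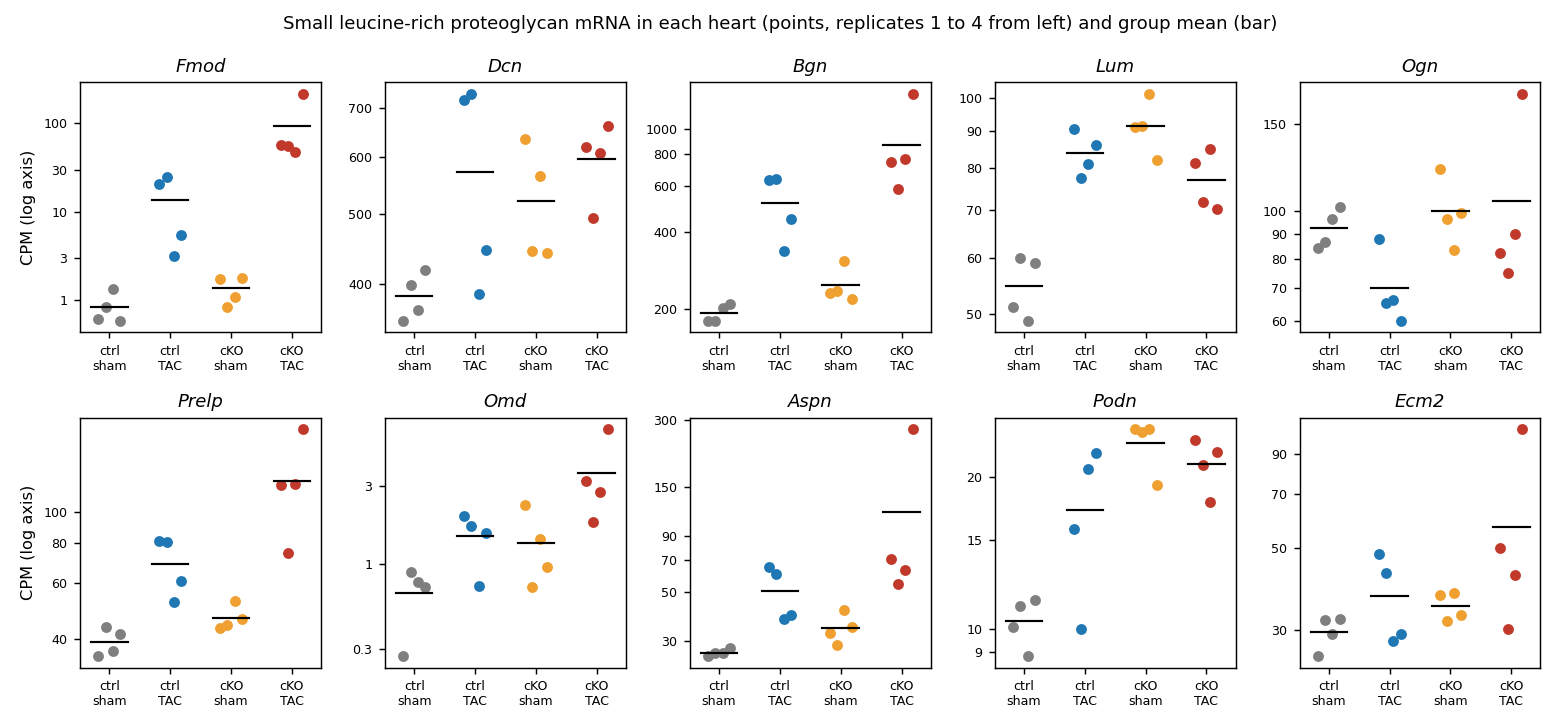
CPM of each of the 10 genes (log axis, a separate scale in each panel) in every heart of the 4 groups; points are hearts in replicate order and bars are group means. Fmod spans from 0.582 to 217 CPM, Trbp-cKO TAC replicate 4 is the highest heart of its group in 8 of the 10 panels, and Lum and Podn are higher in Trbp-cKO than in control hearts after sham but overlap after TAC.

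Fmod (ENSMUSG00000041559, chromosome 1, 134037254–134048277, plus strand) encodes fibromodulin, which binds collagen and governs fibril maturation. Fmod was at 0.606, 0.833, 1.33 and 0.582 CPM in the 4 control sham hearts and at 1.75, 0.827, 1.08 and 1.80 CPM in the Trbp-cKO sham hearts. It reached 20.5, 24.7, 3.20 and 5.49 CPM in control TAC and 56.3, 55.9, 47.4 and 217 CPM in Trbp-cKO TAC hearts. Each TAC heart was above each sham heart, and each Trbp-cKO TAC heart was above each control TAC heart, while the sham groups overlapped. The lowest count behind any of these values was 33.

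The rises after TAC chose these genes and are given as a description. Fmod was higher after TAC by 4.00 (SE 0.70) on the log2 scale in control and by 6.12 (SE 0.74) in Trbp-cKO hearts, the 26th and the 9th highest of 19955 genes. Without control TAC replicates 1 and 2 the first of these values was 2.37, and without Trbp-cKO TAC replicate 4 the second was 5.30. The other 9 genes ranked between the 384th and the 16914th in control and between the 256th and the 15074th in Trbp-cKO hearts.

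The rise of Fmod after TAC chose this family. Tests of Fmod that use TAC hearts are therefore not independent of the choice, and their p-values may be too small. Between Trbp-cKO TAC and control TAC, a contrast that the choice did not name but that shares its hearts, Fmod was higher by 2.81 on the log2 scale (SE 0.63, adjusted p = 0.0187, edgeR quasi-likelihood test with Benjamini-Hochberg adjustment), in 4 of 4 hearts. It remained called without Trbp-cKO TAC replicate 4, at 1.99 (adjusted p = 0.0370), and without control TAC replicates 1 and 2 it was higher by 4.42 (adjusted p = 0.00483). The call was lost when only these 2 groups were fitted (adjusted p = 0.168) and with a block for replicate number (adjusted p = 0.0651), and the lowest adjusted p over the alternatives was 0.000120. In sham hearts the difference was 0.69 (SE 0.69, 95% interval from -0.78 to 2.15, adjusted p = 0.758). The difference between the 2 effects, the interaction, was 2.12 (SE 0.91, adjusted p = 0.278), with 1.301 (adjusted p = 0.352) without Trbp-cKO TAC replicate 4 and 3.75 (adjusted p = 0.0701) without control TAC replicates 1 and 2.

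Prelp (ENSMUSG00000041577, chromosome 1, 133910304–133921414, minus strand) encodes prolargin, which links basement membranes to connective tissue. It measured 35.3, 43.6, 36.6 and 41.6 CPM in control sham, 43.4, 44.1, 52.8 and 46.2 CPM in Trbp-cKO sham, 81.2, 80.2, 52.1 and 60.6 CPM in control TAC and 121, 74.5, 122 and 181 CPM in Trbp-cKO TAC hearts. Trbp-cKO TAC replicate 2 lay within the control TAC range and the other 3 above it. Prelp was higher in Trbp-cKO TAC than in control TAC hearts by 0.86 (SE 0.21, edgeR adjusted p = 0.0280). This call stood near both thresholds, since the difference fell to 0.63 (adjusted p = 0.0516) without Trbp-cKO TAC replicate 4 and the adjusted p was 0.0605, 0.0572 and 0.0604 without Trbp-cKO TAC replicate 1, Trbp-cKO TAC replicate 3 and control TAC replicate 3. It was also lost when only these 2 groups were fitted (adjusted p = 0.217), with the edgeR exact test (adjusted p = 0.0895), with a block for replicate number (adjusted p = 0.0809) and with the clock score, where the difference was 0.75. In its exons, 350 bases (9.68%) also belong to the antisense gene Gm15851, and whether the counting used strand is not given in the sources used here.

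Called here means an adjusted p of at most 0.05 and a log2 fold change of at least 0.8 in size. Fmod and Prelp were the 2 of 10 members called higher with deletion after TAC, where 1.55% of all genes tested were called higher, and 0 members were lower by edgeR (0.912% of all genes), at an unadjusted p under 0.05 or by DESeq2. The rise of Fmod after TAC chose the family, so its part in this count and those below is not independent of the choice. With DESeq2 the members called higher were 4, with Aspn and Omd, where 431 of 19955 genes were called higher by DESeq2. The count was 0 when only these 2 groups were fitted, where 67 of 18859 genes were called higher. It was 7 with the mitochondrial share as covariate, a setting chosen after seeing the data, where 718 of 19955 genes were called higher. Only Fmod had hearts that did not overlap, as did 6.12% of all genes in this direction. The median difference of the 10 was 0.69, against -0.01 over all genes, 9 of 10 were above 0, and 7 had an unadjusted p under 0.05, as did 21.4% of all genes. This median leaned on Trbp-cKO TAC replicate 4. Without that heart the differences of Fmod, Prelp, Bgn, Aspn, Omd, Ogn and Ecm2 were all smaller, as given with each gene.

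The other class I and II members after TAC did not pass the test. Bgn, which encodes biglycan (ENSMUSG00000031375, chromosome X, 73483602–73495933, plus strand), measured 638, 643, 336 and 446 CPM in control TAC and 745, 585, 769 and 1378 CPM in Trbp-cKO TAC hearts. Its difference was 0.75 (SE 0.25, edgeR adjusted p = 0.0938), and without control TAC replicates 1 and 2 it was 1.14 (adjusted p = 0.0345), past both thresholds, whereas without Trbp-cKO TAC replicate 4 it was 0.44 (adjusted p = 0.192). In sham hearts Bgn measured 180, 180, 201 and 208 CPM in control and 231, 235, 308 and 220 CPM in Trbp-cKO mice, without overlap, and the difference was 0.37 (SE 0.25, adjusted p = 0.586).

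Aspn (ENSMUSG00000021388, chromosome 13, 49544443–49567565, plus strand), which encodes asporin, a collagen-binding class I protein, measured 25.6–28.1 CPM in control sham and 28.8–41.5 CPM in Trbp-cKO sham hearts, without overlap. It measured 65.2, 60.5, 37.7 and 39.3 CPM in control TAC and 70.6, 54.5, 62.8 and 273 CPM in Trbp-cKO TAC hearts. The difference after TAC was 1.19 (SE 0.41, edgeR adjusted p = 0.101) and rested on replicate 4, since it was 0.31 without that heart. Omd (ENSMUSG00000048368, chromosome 13, 49582462–49592822, plus strand), which encodes osteomodulin, known from bone, was at 0.271 to 6.73 CPM over the 16 hearts, with a lowest count of 17, and differed after TAC by 1.29 (SE 0.45, edgeR adjusted p = 0.111), and by 0.80 (adjusted p = 0.238) without Trbp-cKO TAC replicate 4. Of its 75-base stretches, 3.38% also occur in other genes.

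Ogn (ENSMUSG00000021390, chromosome 13, 49608046–49624501, plus strand), which encodes osteoglycin, also called mimecan, measured 84.1–102 CPM after sham and 60.0–87.8 after TAC in control hearts, and 83.5–122 and 75.1–173 CPM in Trbp-cKO hearts. It was the only member below 0 after TAC in control hearts, at -0.40 (SE 0.22). Between genotypes after TAC it differed by 0.59 (SE 0.22, edgeR adjusted p = 0.138), and by 0.24 (adjusted p = 0.309) without Trbp-cKO TAC replicate 4. Ecm2 (ENSMUSG00000043631, chromosome 13, 49504810–49532789, plus strand) measured 25.4–31.96, 27.9–48.1, 31.6–37.7 and 30.2–105 CPM in the same order of groups and differed by 0.62 (SE 0.29, edgeR adjusted p = 0.231), by 0.14 (adjusted p = 0.664) without Trbp-cKO TAC replicate 4 and by 0.98 (adjusted p = 0.150) without control TAC replicates 1 and 2. In all 4 genes of the chromosome 13 cluster, Trbp-cKO TAC replicate 4 was the highest of the 16 hearts. The same held for Fmod, Prelp and Bgn, which lie on other chromosomes.

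**Figure D2:**
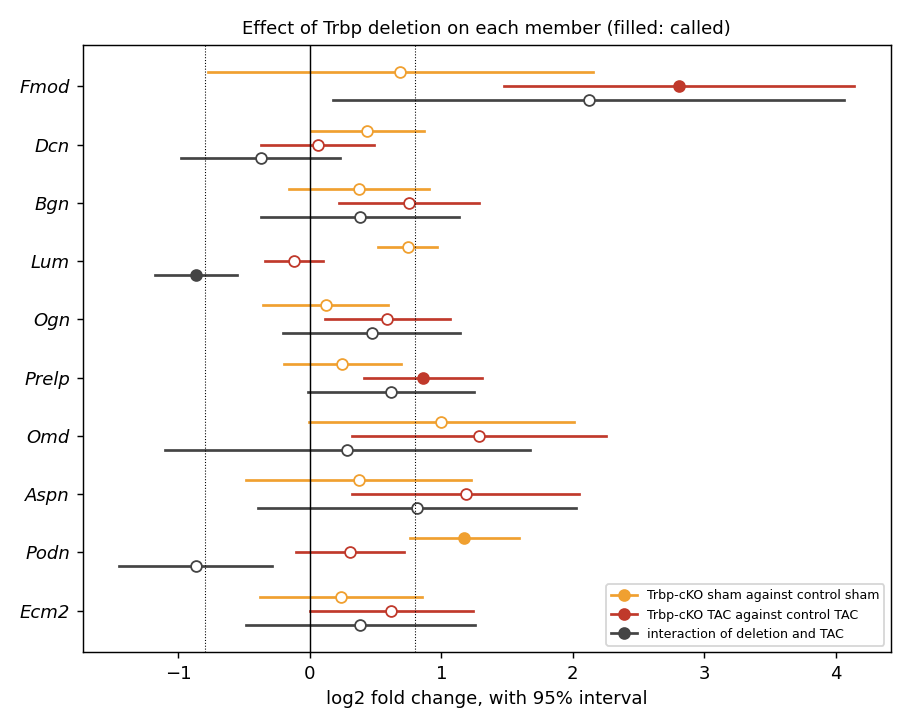
log2 fold change (points) with 95% interval (lines) of each gene in Trbp-cKO against control hearts after sham and after TAC, and for the interaction; filled points are called and dotted lines mark -0.8 and 0.8. Podn is filled after sham, Fmod and Prelp after TAC, and Lum for the interaction, at -0.86.

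In hearts without pressure overload, other members differed with Trbp deletion. Podn (ENSMUSG00000028600, chromosome 4, 108014791–108096445, minus strand) encodes podocan, a class V collagen-binding protein known from smooth muscle. Podn measured 10.1, 11.1, 8.82 and 11.4 CPM in control sham and 24.9, 24.5, 24.9 and 19.2 CPM in Trbp-cKO sham hearts, so the lowest Trbp-cKO heart was above the highest control heart. Podn was higher in Trbp-cKO sham by 1.17 on the log2 scale (SE 0.20, edgeR adjusted p = 0.00849). Leaving out any 1 heart gave differences from 1.10 to 1.26.

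Lum (ENSMUSG00000036446, chromosome 10, 97565128–97572703, plus strand) encodes lumican, a class II protein that orders collagen fibrils. It measured 51.1, 59.8, 48.9 and 59.0 CPM in control sham and 91.3, 91.5, 102 and 82.0 CPM in Trbp-cKO sham hearts, again without overlap. The difference of 0.74 (SE 0.10, edgeR adjusted p = 0.00293) passed the adjusted p but not the fold threshold. Podn was the 1 of 10 members called higher with deletion after sham, where 0.511% of all genes were called higher, 0 members were lower by edgeR (0.456% of all genes), at an unadjusted p under 0.05 or by DESeq2, and Lum and Podn were the 2 past the adjusted p alone, as were 1.02% of all genes.

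The other members of the sham comparison did not pass the test. Dcn, Bgn, Lum, Aspn and Podn, 5 of the 10, had sham groups that did not overlap, as did 7.74% of all genes in this direction. All 10 differences were above 0, with a median of 0.40 against 0.01 over all genes, and 3 had an unadjusted p under 0.05, as did 13.7% of all genes. Dcn (ENSMUSG00000019929, chromosome 10, 97479609–97518143, plus strand), which encodes decorin, measured 356, 399, 369 and 419 CPM in control sham and 635, 445, 564 and 442 CPM in Trbp-cKO sham hearts, a difference of 0.43 (SE 0.20, edgeR adjusted p = 0.357). After TAC it measured 718, 733, 388 and 446 CPM in control and 618, 494, 607 and 662 CPM in Trbp-cKO hearts, and the difference was 0.06 (SE 0.20, 95% interval from -0.37 to 0.49, adjusted p = 0.897), and without control TAC replicates 1 and 2 it was 0.50 (adjusted p = 0.128).

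The clock gene score moved with this comparison, as given above, and its part cannot be told apart from that of deletion in sham hearts. With that score in the fit, a setting chosen after seeing the data, Podn was higher by 0.77 (edgeR adjusted p = 0.427) and Lum by 0.82 (edgeR adjusted p = 0.231), and neither was called. Resident fibroblast markers, a list of 12 genes, summed to 1484–1999 CPM in Trbp-cKO sham against 1354–1434 CPM in control sham hearts. Gsn made up most of both sums, with means of 1129 and 956 CPM, and differed by 0.24 (SE 0.17, edgeR adjusted p = 0.600). Of the 12, 11 were above 0 with a median difference of 0.51, against 0.40 for the members, and 2 were called higher, Pi16 by 0.99 (SE 0.22, edgeR adjusted p = 0.0320) and Cygb by 0.91 (SE 0.16, edgeR adjusted p = 0.0114), and none of the 12 was at 0. The defining fibroblast gene Tcf21 was at 5.10 ± 1.34 CPM in control sham and 8.95 ± 0.855 CPM in Trbp-cKO sham hearts, a difference of 0.81 (SE 0.25, edgeR adjusted p = 0.121). Pdgfra, the 1 of the 12 that was not above 0, was at 39.8 ± 4.84 CPM in control sham and 39.0 ± 2.72 CPM in Trbp-cKO sham hearts (SD, n = 4). Activated fibroblast markers, a list of 12, summed to 602–841 CPM in Trbp-cKO sham against 318–476 CPM in control sham hearts, also without overlap. Of these 12, 8 were above 0 with a median of 0.21, and Acta2, a gene shared with smooth muscle, was the 1 called, higher by 1.18 (SE 0.27, edgeR adjusted p = 0.0417). Acta2 also made up most of both sums, with means of 499 CPM in Trbp-cKO sham and 220 CPM in control sham hearts. The part of these marker genes in the Lum and Podn differences was not tested.

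Lum was the member called for a different response to deletion in sham and TAC hearts, a call that depended on the fit. After TAC it measured 90.8, 77.5, 81.1 and 86.1 CPM in control and 81.4, 71.6, 84.9 and 70.2 CPM in Trbp-cKO hearts, with overlap and a difference of -0.12 (SE 0.10, 95% interval from -0.34 to 0.10, edgeR adjusted p = 0.527). From sham to TAC the difference was 0.62 (SE 0.10) in control and -0.25 (SE 0.10) in Trbp-cKO hearts. The interaction was -0.86 (SE 0.15, edgeR adjusted p = 0.0129), and Lum was the 1 member called, where 0.426% of all genes were called lower. Of the 10, 0 were called higher in the interaction by edgeR or by DESeq2, where 0.446% of all genes were called by edgeR, and 1 was higher (Fmod) and 2 were lower (Lum and Podn) at an unadjusted p under 0.05, as were 15.4% of all genes in either direction. The Lum call was lost with a block for replicate number (-0.86, adjusted p = 0.0594), with the clock score in the fit (-0.96, adjusted p = 0.175) and with a fold threshold of 1.

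The Podn interaction had nearly the same size but did not pass the test with all hearts. In TAC hearts it measured 15.7, 9.998, 20.7 and 22.3 CPM in control and 23.6, 21.2, 17.9 and 22.4 CPM in Trbp-cKO mice, and the groups overlapped. The difference after TAC was 0.31 (SE 0.19, edgeR adjusted p = 0.378) and the interaction was -0.87 (SE 0.27, edgeR adjusted p = 0.142). Without control TAC replicate 2, the heart at 9.998 CPM, the interaction was -1.06 (adjusted p = 0.0217) and was called, and without both control TAC replicates 1 and 2 it was -1.20 (adjusted p = 0.00716).

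The members followed different patterns over the 16 hearts. Likeness was measured as the root mean square difference between centred log2 CPM values, so that 0 is the same pattern. The closest pairs were Bgn and Prelp (0.286), Dcn and Lum (0.295), Prelp and Aspn (0.319), Dcn and Ecm2 (0.321) and Lum and Podn (0.337). Fmod was at 1.86 from its nearest member, Bgn, and at 2.70 from the farthest, Ogn. The neighbours on chromosome 1, Prelp and Fmod, differed by 2.08. These distances rest on the same libraries and are a description.

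**Figure D3:**
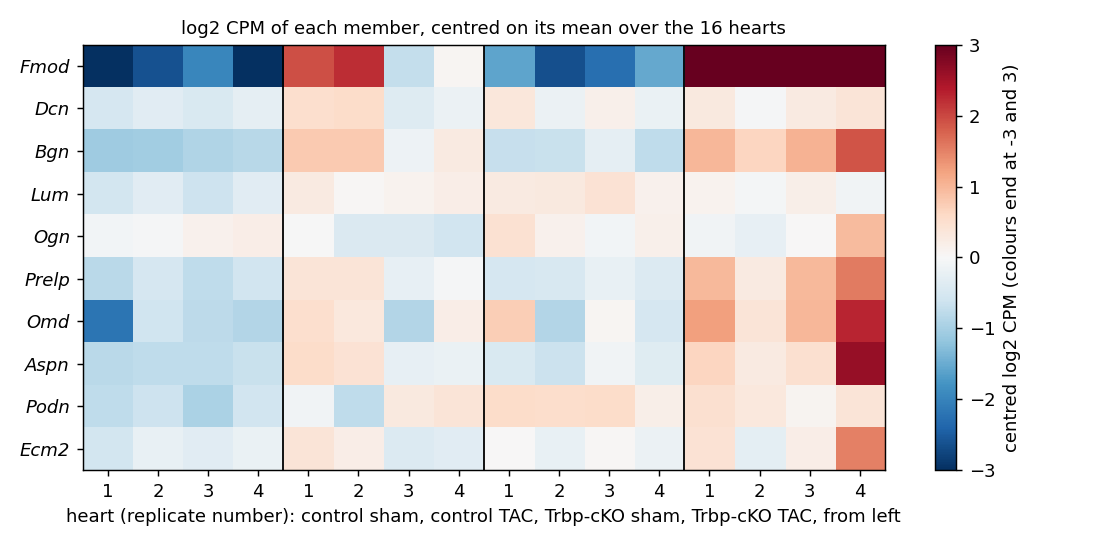
log2 CPM of each gene (rows) in each of the 16 hearts (columns, 4 groups from left), centred on the mean of that gene; red is above and blue below, and colours end at -3 and 3. Fmod covers the whole scale and is above 3 in the 4 Trbp-cKO TAC hearts, and control TAC replicates 1 and 2 both stand above replicates 3 and 4 in 7 of the 10 rows, but not in Podn, Lum and Ogn.

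Hearts of one group differed in most members together. The mean centred log2 CPM of the 10 genes was 0.52 and 0.37 in control TAC replicates 1 and 2 but -0.31 and -0.02 in replicates 3 and 4. Trbp-cKO TAC replicate 4 stood at 1.68, against 0.47 to 0.84 in the other 3 hearts of its group. Activated fibroblast markers, 12 genes of which none was at 0, summed to 987 and 1129 CPM in control TAC replicates 1 and 2, to 486 and 594 CPM in replicates 3 and 4, and to 1620, 2195, 2237 and 3395 CPM in Trbp-cKO TAC replicates 2, 1, 3 and 4. The order of these sums within Trbp-cKO TAC was that of the mean of the members except that replicates 1 and 3 changed places. Endothelial markers, 10 genes with none at 0, summed to 3012 and 3260 CPM in control TAC replicates 1 and 2 against 1700 and 1685 CPM in replicates 3 and 4, and to 1459, 1376, 1315 and 2165 CPM in the Trbp-cKO TAC hearts. Between genotypes after TAC, 0 of the 10 endothelial markers were above 0, with a median of -0.47, and Aqp1 was called lower by edgeR at -1.05 (SE 0.22, adjusted p = 0.0137). That median was 0.073 without control TAC replicates 1 and 2, where 0 of the 10 were called by edgeR. Without Trbp-cKO TAC replicate 4 it was -0.71, and Aqp1 was again called lower. Of the 12 activated fibroblast markers, 8 were called higher in this contrast, with a median of 1.21. Of 7 atrial markers, 4 were tested and 2 of these were also called higher, with a median of 1.99. These were Nppa, by 2.09 (SE 0.27, edgeR adjusted p = 0.000512), and Myl4, by 1.90 (SE 0.22, edgeR adjusted p = 0.000190). Nppa encodes ANP, which the study counts among its markers of heart failure and also reports as raised in Trbp-cKO hearts after TAC, so Nppa is not a marker of atrial tissue alone. The part of the cells behind these markers in the values of the members was not tested.

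Bgn and Dcn are class I proteins that both carry chondroitin or dermatan sulfate chains and bind the same partners. The ratio of their CPM was 0.504, 0.451, 0.546 and 0.497 in control sham and 0.364, 0.529, 0.546 and 0.497 in Trbp-cKO sham hearts. It was 0.888, 0.878, 0.866 and 1.00 in control TAC and 1.21, 1.18, 1.27 and 2.08 in Trbp-cKO TAC hearts. The lowest Trbp-cKO TAC heart was above the highest control TAC heart, whereas the sham groups overlapped. Within control TAC the ratio in replicates 1 and 2 lay between those in replicates 3 and 4. This ratio was chosen after the values of both genes were seen and is given as a description, with no test.

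**Figure D4:**
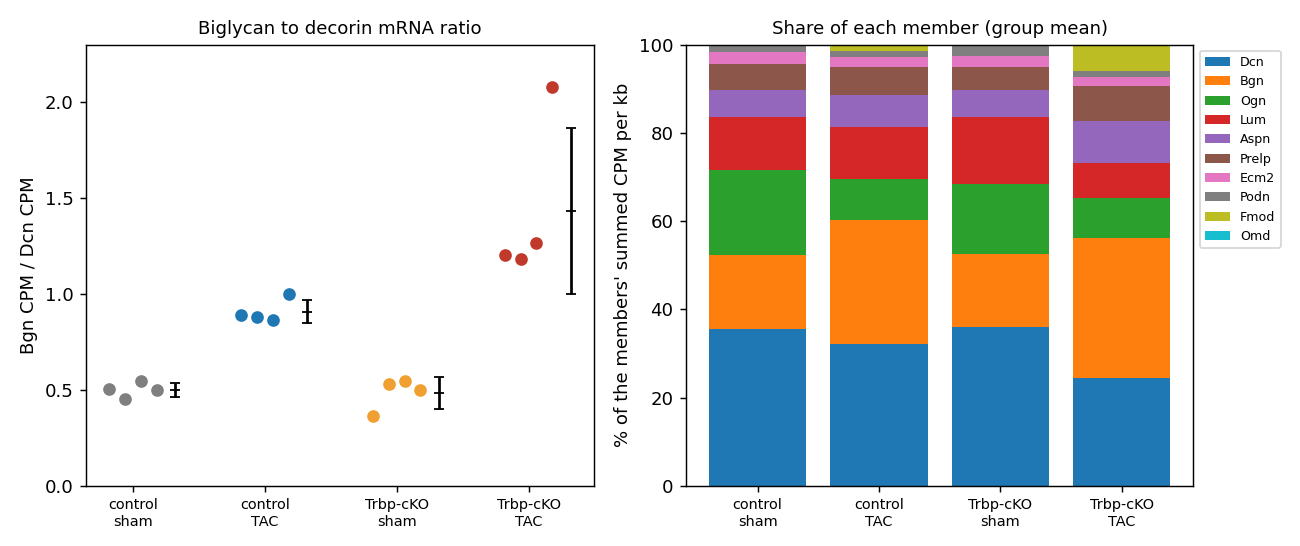
Left, ratio of Bgn to Dcn CPM in each heart, with mean and SD beside the points; right, mean share of each gene in the summed CPM per kb of the 10. The 4 Trbp-cKO TAC hearts lie between 1.18 and 2.08, all above the control TAC hearts, and Fmod is visible as a share only after TAC.

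Genes with a pattern most like that of Fmod, by the same distance and among all tested genes that are no members, were Comp (0.545), Thbs4 (0.604), Cilp2 (0.616), Col12a1 (0.624) and Gm13054 (0.714). Comp encodes a cartilage matrix protein and had means of 2.72 CPM after sham and 51.8 after TAC in control hearts, and of 5.47 and 225 CPM in Trbp-cKO hearts. Col12a1, which encodes a fibril-associated collagen, had means of 1.22 and 11.5 CPM in control and 2.31 and 64.3 CPM in Trbp-cKO hearts. Genes most like Dcn, the highest member per length in control sham, were Cfl1 (0.143), Plac9b (0.149), Tradd (0.151), Prrg2 (0.153) and Slc50a1 (0.155).

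Among genes of tendon, valve and cartilage, where Fmod is known to be abundant, 3 of 12 tested were called higher with deletion after TAC and 0 lower by edgeR, at an unadjusted p under 0.05 or by DESeq2. Scx, a transcription factor of tendon, was higher by 1.45 (SE 0.15, edgeR adjusted p = 8.75e-05), Cilp2 by 3.20 (SE 0.63, edgeR adjusted p = 0.00928) and Tnmd, a tendon membrane protein, by 2.80 (SE 0.65, edgeR adjusted p = 0.0227). Without Trbp-cKO TAC replicate 4, Tnmd was at 2.15 (adjusted p = 0.0508) and not called, and Scx and Cilp2 were. Without control TAC replicates 1 and 2, 4 of the 12 were called, with Comp added, and the median of the list was 1.65 against 0.62 with all hearts. The whole list of 14 summed to 165–699 CPM in Trbp-cKO TAC, highest in replicate 4, 55.0–202 CPM in control TAC, 37.5–53.1 CPM in Trbp-cKO sham and 82.6–293 CPM in control sham hearts. Most of the sum in Trbp-cKO TAC came from Comp (mean 225 CPM) and Thbs1 (mean 79.5 CPM). In control sham hearts most came from Thbs1 alone (mean 193 CPM), with Comp at a mean of 2.72 CPM. Thbs1 was called lower with deletion after sham, by -3.94 (SE 0.53, edgeR adjusted p = 0.00247). Matn3 and Matn1 of this list were at 0 in all control TAC and Trbp-cKO TAC hearts. The cartilage collagen Col2a1 stayed at 0.286 CPM or less in Trbp-cKO TAC hearts.

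The partners of these proteins are collagens. Of 16 fibrillar and fibril-associated collagens, 6 were called higher with deletion after TAC, 0 were lower by edgeR, at an unadjusted p under 0.05 or by DESeq2, and 10 were past the adjusted p alone, as were 3.88% of all genes in this direction, with a median of 0.55. Col12a1 was higher by 2.49 (SE 0.40, edgeR adjusted p = 0.00250), Col11a1 by 2.22 (SE 0.51, edgeR adjusted p = 0.0216), Col5a2 by 1.19 (SE 0.26, edgeR adjusted p = 0.0174) and Col1a1, a chain of the main fibrillar collagen, by 1.00 (SE 0.21, edgeR adjusted p = 0.0129). Without Trbp-cKO TAC replicate 4, 2 of the 16 were called, Col12a1 and Col11a1, with Col5a2 at 0.77 and Col1a1 at 0.78 under the fold threshold, and without control TAC replicates 1 and 2 the count was 6. In sham hearts 0 of the 16 were called by edgeR, with 5 higher and 2 lower at an unadjusted p under 0.05 and 1 lower by DESeq2, and the median was 0.21.

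Other genes act on the sugar chains and cores. Of 15 tested enzymes of chondroitin and dermatan sulfate, 0 were called by edgeR or DESeq2 between Trbp-cKO TAC and control TAC hearts, with 5 higher at an unadjusted p under 0.05 and 3 past the adjusted p alone, and the median was 0.29. Without Trbp-cKO TAC replicate 4 the median was 0.17 and 1 was past the adjusted p alone. Of 8 tested keratan sulfate enzymes, 0 were called by edgeR or DESeq2 in this contrast, with 2 higher at an unadjusted p under 0.05. Of 7 linker enzymes, which start the chains on the core protein, 0 were called by edgeR or DESeq2 in this contrast, with 3 higher at an unadjusted p under 0.05. Of 13 proteases that cleave proteoglycans, 3 were called higher in Trbp-cKO TAC than in control TAC hearts. Adamts8 was higher by 1.64 (SE 0.24, edgeR adjusted p = 0.00132), Mmp2 by 1.10 (SE 0.23, edgeR adjusted p = 0.0129) and Mmp3 by 2.53 (SE 0.65, edgeR adjusted p = 0.0357). Of these, Adamts8 was also called without Trbp-cKO TAC replicate 4, at 1.76, and without control TAC replicates 1 and 2, at 1.87. Adamts15 was called in addition without Trbp-cKO TAC replicate 4. Mmp2 and Mmp3 were not called in either case, with Mmp2 at 0.71 (adjusted p = 0.00644) and 1.11 (adjusted p = 0.0564) and Mmp3 at 1.78 (adjusted p = 0.0789) and 3.51 (adjusted p = 0.0519).

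Of 15 receptors bound by decorin, biglycan or lumican, 0 were called by edgeR or DESeq2 between Trbp-cKO TAC and control TAC hearts, with 6 higher and 1 lower at an unadjusted p under 0.05, and 1 was called higher in the interaction. This was Tlr4, the innate immune receptor that binds biglycan, at 1.42 (SE 0.28, edgeR adjusted p = 0.0276), with mean levels of 17.0 CPM after sham and 16.1 after TAC in control hearts, and 9.92 and 25.2 CPM in Trbp-cKO hearts. Without control TAC replicates 1 and 2 the Tlr4 interaction was 1.21 (adjusted p = 0.0800) and not called. Among 11 cell surface heparan sulfate proteoglycans, Sdc4 was the 1 called, higher by 0.86 with deletion after TAC (SE 0.16, edgeR adjusted p = 0.00662) and by 1.47 in the interaction (SE 0.23, edgeR adjusted p = 0.00779). After TAC, Sdc4 was just under the fold threshold without Trbp-cKO TAC replicate 4 (0.79), where Gpc4 was called instead, and without control TAC replicates 1 and 2 (0.7999), while the interaction was called in both cases. The list summed to 298 and 277 CPM in control TAC replicates 1 and 2, against 534 and 528 CPM in replicates 3 and 4.

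The rest of the leucine-rich proteoglycan family had low levels. Kera, the keratocan gene of the cornea, had a count of 0 in all 16 hearts, and Epyc and Optc stayed at or under 0.207 CPM and were not tested. Of the 6 tested, Chad, Chadl, Nyx, Tsku, Podnl1 and Nepn, 0 were called by edgeR between Trbp-cKO TAC and control TAC hearts, with 1 higher at an unadjusted p under 0.05 and 1 higher by DESeq2. Chad, which encodes the cartilage protein chondroadherin, measured 0.414–1.21 CPM in control TAC and 1.06–1.89 CPM in Trbp-cKO TAC hearts, and differed by 0.99 (SE 0.34, edgeR adjusted p = 0.105). Without control TAC replicates 1 and 2, Chad was called higher.

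After TAC itself, with no test since these contrasts chose the members, 9 of 10 were above 0 in control hearts (median 0.77, all genes 0.02) and 8 of 10 in Trbp-cKO hearts (median 1.06, all genes 0.00). After Fmod, Bgn was higher by 1.42 (SE 0.25) in control and 1.81 (SE 0.26) in Trbp-cKO hearts, Aspn by 0.92 and 1.74, Prelp by 0.80 and 1.42, and Omd by 1.16 and 1.44. Podn was at 0.73 and -0.14, Dcn at 0.57 and 0.19, and Ecm2 at 0.32 and 0.71. Without Trbp-cKO TAC replicate 4 the median in Trbp-cKO hearts was 0.54, and Aspn was at 0.86, Omd at 0.96, Ecm2 at 0.23 and Ogn at -0.28 against 0.066 with all hearts. In control hearts the values without control TAC replicates 1 and 2 were 0.53 for Aspn, 0.52 for Prelp, 0.11 for Dcn and -0.052 for Ecm2.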

How the data were processed

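RNA from the ventricles of 16 mice was isolated with TRIzol, selected with oligo(dT) and sequenced as paired reads; each heart was a separate library. The submitters' processing notes name cutadapt 2.3, HISAT2 2.1.0 and StringTie 1.3.4, with the build GRCm38. The deposited values are counts per gene that the authors derived from StringTie transcript coverage, not normalized; because that step assumes a read length, and the value passed to it is not given in the sources used here, counts may differ from fragments by a common factor. Positions and symbols came from GENCODE M21 (55480 of 55573 genes matched), and the annotation release of the counts is not given in the sources used here.

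From these counts, edgeR 4.0.16 (R 4.3.3) was run on all 16 hearts, with TMM factors, its default filter on low counts, a robust quasi-likelihood test and Benjamini-Hochberg adjustment over 19955 genes. The standard error was derived from the log2 fold change and the F statistic. Calls used the thresholds of the study's methods. The comparisons share hearts and are not independent of each other. CPM use TMM-adjusted library sizes, and log2 CPM a prior count of 2. On simulated counts for Trbp-cKO TAC against control TAC, 78% of genes changed by 1 and 97% of genes changed by 2 on the log2 scale were called. The changed genes all had higher mean levels than Omd, and no simulated heart was made to stand apart. These shares therefore need not hold for the members. Both TAC contrasts were treated as used by the choice of members, since it names no genotype. In gene lists, genes named as called with all hearts were among the up to 4 with the largest change in a contrast. Also among these, but not described above, were Mkx after sham and Cthrc1, Acta2, Thbs4, Ltbp2 and Cnn1 after TAC. In the interaction they were Thbs1, Scx, Ddah1, Ckap4 and Myl4. The 5 genes nearest in pattern to Fmod and to Dcn were named. The members and lists were chosen with earlier results of these data known. Alternatives were DESeq2 1.42.0, an edgeR exact test, other scalings, filters, thresholds and samples (hearts that stood apart, left out of the list calls after seeing the data), counts divided by 2, a replicate block and covariates.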

Additional observations from a re-analysis of the deposited data

Results flagged for a closer look

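In 4 of the 40 groups of 4 hearts examined (10 genes in 4 groups), 1 heart lay far from the other 3 relative to the range of its group; chance gives about 1 in 20. Trbp-cKO TAC replicate 4 was such a heart for Fmod, at 217 CPM, for Ogn, at 172.8 CPM, and for Aspn, at 273 CPM. Trbp-cKO sham replicate 4 was low for Podn, at 19.2 CPM.

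The effect of Trbp deletion on Lum differed between sham and TAC hearts by an interaction test, with a log2 difference of -0.86 (SE 0.15, edgeR adjusted p = 0.0129). The call was lost with a block for replicate number (adjusted p = 0.0594) and with the clock score as covariate (adjusted p = 0.175).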

How the results depend on the processing

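The count of members called higher in Trbp-cKO sham, 1, was 2 with library size only and with no fold threshold, and 0 with the clock score as covariate. The count called higher with deletion after TAC, 2, was 4 with DESeq2, 1 with the edgeR exact test, 0 when only the 2 groups were fitted, 1 with a fold threshold of 1, 7 with the mitochondrial share as covariate, 1 with the clock score, and between 1 and 2 with 1 heart left out. Called higher in the interaction were 0 members, and 1 (Fmod) with the mitochondrial share as covariate. The count called lower in the interaction, 1, was 0 with a fold threshold of 1 and with the clock score, 2 with the mitochondrial share or without control TAC replicates 1 and 2, and between 1 and 2 with 1 heart left out. Both covariates and the joint removal of control TAC replicates 1 and 2 were chosen after seeing the data. The cause of these shifts was not tested.

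The median rise after TAC in Trbp-cKO hearts, 1.06, was 0.59 with the clock score and between 0.54 and 1.26 with 1 heart left out. The share of Dcn in control sham, 35.4%, was 33.7% with the longest transcript and 46.9% with coding length, and that of Bgn in Trbp-cKO TAC, 31.8%, was 49.3% and 41.2%, since these lengths divide the same counts.

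Directions that turned were all of differences with no call. Without control TAC replicates 1 and 2 these were Ecm2 after TAC in control hearts (-0.052), Podn between genotypes after TAC (-0.030) and the Dcn interaction (0.074). With the mitochondrial share they were the same 3, at -0.046, -0.070 and 0.13. With the clock score they were Ogn (-0.25) and Podn (0.082) after TAC in Trbp-cKO hearts and the interactions of Bgn (-0.34), Ogn (-0.16), Prelp (-0.15), Omd (-0.69), Aspn (-0.63) and Ecm2 (-0.54). With library size only, Lum was at 0.016 between genotypes after TAC, where that scaling moved the median of all genes to 0.13 (0.11 after sham). With 1 heart left out the values that turned were Ogn after TAC in Trbp-cKO hearts (lowest -0.28, highest 0.20), Dcn between genotypes after TAC (-0.092 without control TAC replicate 3 to 0.20) and the interactions of Omd (-0.20 to 0.66), Aspn (-0.062 to 1.05) and Ecm2 (-0.094 to 0.59), each lowest without Trbp-cKO TAC replicate 4.

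Replicate numbers did not pair the hearts, since 3 of 24 correlations of deviations between same-numbered hearts were over 0.1 (from -0.43 to 0.21). With the replicate block, 0 members were called higher with deletion after TAC (Fmod at 2.73, adjusted p = 0.0651) and 0 lower in the interaction (Lum, adjusted p = 0.0594). It lowered the all-gene calls in TAC hearts from 309 higher and 182 lower to 196 and 78. DESeq2 gave 431 and 326, library size only 579 and 126, the mitochondrial share 718 and 678, and the fit of only the 2 groups 67 and 17. In sham hearts the 102 higher and 91 lower calls became 212 and 168 with DESeq2, 334 and 267 with the exact test, 205 and 76 with library size only, 246 and 183 with only the 2 groups, 303 and 210 with the mitochondrial share, 65 and 42 with the block, and 0 and 3 with the clock score. Interaction calls, 89 higher and 85 lower, became 253 and 295 with DESeq2, 259 and 175 with the mitochondrial share, 34 and 20 with the block, and 5 and 0 with the clock score. Depth limits Fmod and Omd most, whose lowest counts were 33 and 17.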
